A study of Mus musculus with 21 samples.

Results

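The 10 genes described here belong to the Hippo pathway and to the polarity and adhesion machinery that feeds it in the mouse embryo: Tead4, Yap1, Wwtr1, Lats1, Lats2, Amot, Nf2, Pard6b, Prkci and Cdh1. They were listed by name for their known roles by a rule that uses no measured value, though with earlier results of these data known. Long reads of mouse gametes and embryos had been merged into 22612 transcripts, of which 18333 overlapped exons of a gene of GENCODE vM21 (build GRCm38) on the same strand. The 10 genes held 12 of these transcripts. Lats1, which encodes one of the kinases that phosphorylate YAP, had none, so that 9 of the 10 genes were measured, among 10917 genes with a merged transcript. The value of a gene is the sum of its transcripts in TPM, an abundance per transcript length that is scaled to the same total over all merged transcripts in every library.

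In the mammalian embryo the Hippo pathway reads the position of a cell. In inner, apolar cells the membrane proteins NF2 (Merlin) and AMOT (angiomotin) help the kinases LATS1 and LATS2 to phosphorylate YAP (from Yap1) and TAZ (from Wwtr1), which then stay out of the nucleus. In outer cells an apical domain that holds PARD6B and the atypical protein kinase C from Prkci keeps AMOT away from the junctions, YAP and TAZ enter the nucleus, and with them the DNA-binding protein TEAD4 turns on trophectoderm genes such as Cdx2.

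Short reads came from 14 libraries, 2 for each of 7 stages (sperm, then oocyte, then embryos of 1-cell, 2-cell, 4-cell, 8-cell and blastocyst stage), and the 7 long-read pools each combined the batches of a stage. Sperm came from DBA/2J males by the sample titles (DBA/2N by the protocol text), oocytes from C57/BL6J females, and embryos from ♂DBA/2J x ♀C57/BL6J matings. The females were 3 to 5 weeks old and were superovulated with 7.5 IU PMSG and then 7.5 IU hCG. Oocytes were collected at 20 h after hCG, 1-cell embryos at 24 to 26 h, 2-cell embryos at 46 to 48 h, 4-cell embryos at 54 to 58 h, 8-cell embryos at 68 to 70 h and blastocysts at 94 to 96 h, with culture in KSOM. Each library held pooled whole embryos or gametes amplified by Smart-seq2, so inner and outer cells were not separated, and fewer cells of a type cannot be told apart from less RNA per cell. No gene had been altered in any library.

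The markers of the labels were highest at their own stage for sperm, oocyte and blastocyst, but not in every 2-cell library. The summed TPM of 5 sperm markers was 13870 to 20737 in sperm and at most 17.0 in all other libraries, and that of 5 blastocyst markers was 10141 to 37296 in blastocysts. The 4 markers of 2-cell summed to 14.3 TPM in 2-cell replicate 1 and 288 TPM in the other 2-cell library, against 29.8 to 33.1 TPM at 4-cell, so that 1 of the 2-cell libraries lay below both of 4-cell. Sperm also held 508 to 2210 TPM of the 4 measured blood and epididymis markers, against at most 2.53 TPM in the later libraries, and their part in the sperm levels of the 9 genes was not tested. The replicates were farthest apart at 2-cell, where the median SD over genes was 1.06 on the log2(TPM + 1) scale, and closest at 4-cell (0.192) and 8-cell (0.301). TPM does not keep the number of reads, so the reads behind each value are unknown. The paper lists the total sequences of each library, and those of the replicates were far apart at both 1-cell and 2-cell.

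A TPM reports only reads that fall on the merged transcripts, and these reached into the 9 genes to very different degrees. Tead4 (chr6:128224288-128300823, minus strand) and Wwtr1 (chr3:57455649-57575910, minus strand) had spliced transcripts that covered 100% and 94.7% of the annotated coding bases. Nf2 (chr11:4765845-4849536, minus strand) had a transcript of 15 exons that covered 82.4%. The Cdh1 transcript held the last 11 exons of the gene (chr8:106603351-106670246, plus strand) and 71.4% of the coding bases, and the Yap1 transcript the last 3 exons (gene at chr9:7931999-8004596, minus strand) and 30.6%.

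The remaining genes rested on single exons. The Pard6b piece of 2002 bases (gene at chr2:168081004-168101203, plus strand) held 7 coding bases, and the Prkci piece of 2153 bases (gene at chr3:30995747-31052959, plus strand) held none. Amot (chrX:145446425-145505181, minus strand) was read from 200 bases that stop 43 bases before the gene end. The Lats2 piece of 1736 bases (gene at chr14:57689662-57758388, minus strand) had 1488 bases outside annotated exons, so that the Lats2 values are uncertain.

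**Figure D1:**
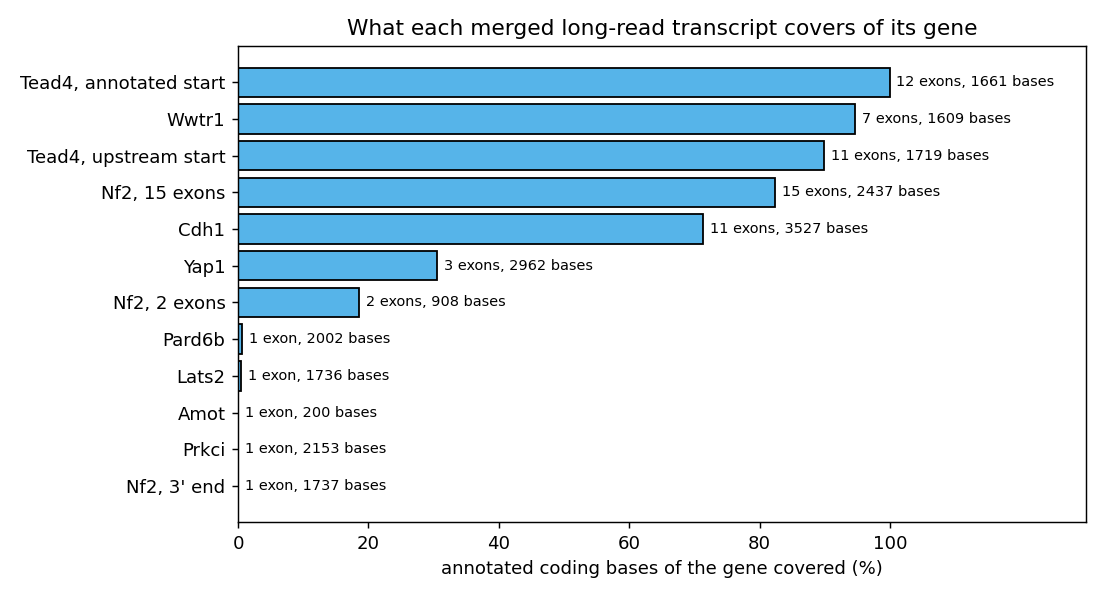
Each bar gives the percent of the annotated coding bases of a gene (all its GENCODE vM21 transcripts together) covered by 1 of the 12 merged long-read transcripts of 9 genes. Tead4 with its annotated start reaches 100%, and Amot, Prkci and the 3′ piece of Nf2 are at 0%.

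The long reads separated a pair of Tead4 isoforms by their first exon and by 1 internal coding exon. The first isoform had 12 exons and the intron chain of the longest annotated Tead4 coding sequence. The second, seen in the 4-cell pool, began 5867 bases upstream of the annotated gene start in an exon of 325 bases (chr6:128306366-128306690) outside the annotated Tead4 exons, had 1 intron that is not annotated, and lacked exon 5 (chr6:128247960-128248088). Exon 5 has 129 bases inside the coding sequence, or 43 codons with no remainder. The annotated coding sequences have 427 codons with the exon and 384 without it. The exon with 24 bases on each side, and the junction that skips it, are printed from the GENCODE vM21 transcripts (GRCm38, minus strand, 5′ to 3′) because they tell the isoforms apart, and capitals mark exon 5.
Tead4 exon 5 kept: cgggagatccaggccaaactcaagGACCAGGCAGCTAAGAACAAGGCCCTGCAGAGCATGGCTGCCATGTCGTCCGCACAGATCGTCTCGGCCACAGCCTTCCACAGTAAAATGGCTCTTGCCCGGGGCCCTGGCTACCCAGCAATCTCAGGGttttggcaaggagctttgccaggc
Tead4 exon 5 skipped: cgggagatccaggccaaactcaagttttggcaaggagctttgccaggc

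The Wwtr1 transcripts of the 4-cell, 8-cell and blastocyst pools began 109, 106 and 102 bases after the annotated gene start. The RefSeq window printed runs from 250 bases before to 50 bases after this start (GRCm38.p6, chr3:57575861-57576160, minus strand). It was chosen because the long reads of 3 pools followed the whole Wwtr1 intron chain to within 109 bases of this start. None of these transcripts reached into the window, and a second RefSeq window (chr3:57575827-57576126) lay nearer to their starts. Capitals mark GGAATG, the core letters of the motif known for TEAD proteins, 136 bases before the start.
Wwtr1 start window: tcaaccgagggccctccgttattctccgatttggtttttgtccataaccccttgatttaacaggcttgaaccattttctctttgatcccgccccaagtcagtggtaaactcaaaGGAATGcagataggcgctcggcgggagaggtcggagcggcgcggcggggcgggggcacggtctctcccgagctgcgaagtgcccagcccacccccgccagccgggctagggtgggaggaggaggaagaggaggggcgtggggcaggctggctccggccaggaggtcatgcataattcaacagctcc
GGAATG or its reverse complement CATTCC was in a window of 4 of the 8 genes with a RefSeq window (Wwtr1, Yap1, Prkci and Lats2). Counted by window, it was in 5 of their 11 windows and in 14.7% of all 32851 windows. The Wwtr1 windows overlap and share 1 GGAATG, which is counted in each of them. Such a match describes letters and is no measurement of binding.

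Tead4, the DNA-binding partner of YAP and TAZ, had its lowest level in oocytes and its highest at 4-cell. It was listed at 0 in both oocyte libraries and at 0.119 and 0.164 TPM at 1-cell, and reached 6.55 and 6.28 TPM at 2-cell. It stood at 63.4 and 58.2 TPM at 4-cell, 34.4 and 56.7 TPM at 8-cell and 22.4 and 37.7 TPM in blastocysts, and at 0.105 and 0.656 TPM in sperm. From oocyte to 4-cell each stage lay above the one before it in both libraries, 8-cell lay below 4-cell, and 8-cell and blastocyst overlapped. limma on log2(TPM + 1), with Benjamini-Hochberg adjustment over 10000 genes and a call at 0.05, gave a rise from 1-cell to 2-cell of 2.70 ± 0.63 (SE, n = 2 libraries per stage, adjusted p = 0.00532) and from 2-cell to 4-cell of 3.06 ± 0.63 (adjusted p = 0.0282). With a separate spread for each stage the limma adjusted p values were 0.0636 and 0.175, and neither rise was called. The second was also lost without 4-cell replicate 1 (limma adjusted p = 0.274) or 4-cell replicate 2 (0.31).

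Yap1, the coactivator that gives the pathway its main output, was present from the oocyte on. Its level was 45.9 and 29.6 TPM in oocytes, 50.6 and 37.7 TPM at 1-cell, 39.1 and 186 TPM at 2-cell and 27.7 and 37.8 TPM at 4-cell. It was 11.9 and 10.1 TPM at 8-cell, 14.8 and 3.35 TPM in blastocysts, and 2.23 and 0.693 TPM in sperm. On the merged transcripts every 8-cell and blastocyst library lay below every library from oocyte to 4-cell. Over the long-read transcripts of each stage alone, Yap1 stood at 49.4 and 7.43 TPM in blastocysts and at 99.4 and 45.2 TPM in oocytes. These stages then overlapped, on Yap1 pieces of 338 bases in blastocysts and 1086 bases in oocytes. From oocyte to blastocyst Yap1 fell by 2.19 on the log2(TPM + 1) scale (SE 0.834, limma adjusted p = 0.0384). The limma adjusted p was 0.161 without oocyte replicate 1, 0.0673 without oocyte replicate 2, 0.288 without blastocyst replicate 2 and 0.0842 in the fit on the 4 libraries of these stages.

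Wwtr1, which encodes the YAP paralog TAZ, was near 0 where Yap1 was already present. It stood at 0.0359 and 0.191 TPM in oocytes and 0.554 and 0.533 TPM at 1-cell, then at 67.7 and 8.46 TPM at 2-cell and 20.7 and 14.3 TPM at 4-cell. It was 22.9 and 42.8 TPM at 8-cell, 20.6 and 56.4 TPM in blastocysts, and 2.97 and 9.09 TPM in sperm. All 8 libraries from 2-cell to blastocyst lay above all 4 of oocyte and 1-cell, and the stages from 2-cell on overlapped except 4-cell and 8-cell. The rise from 1-cell to 2-cell was 4.05 ± 0.87 on the log2(TPM + 1) scale (SE, limma adjusted p = 0.00332, and 0.0206 with a separate spread for each stage). From oocyte to blastocyst the level was higher by 4.99 ± 0.87 (limma adjusted p = 0.000327).

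**Figure D2:**
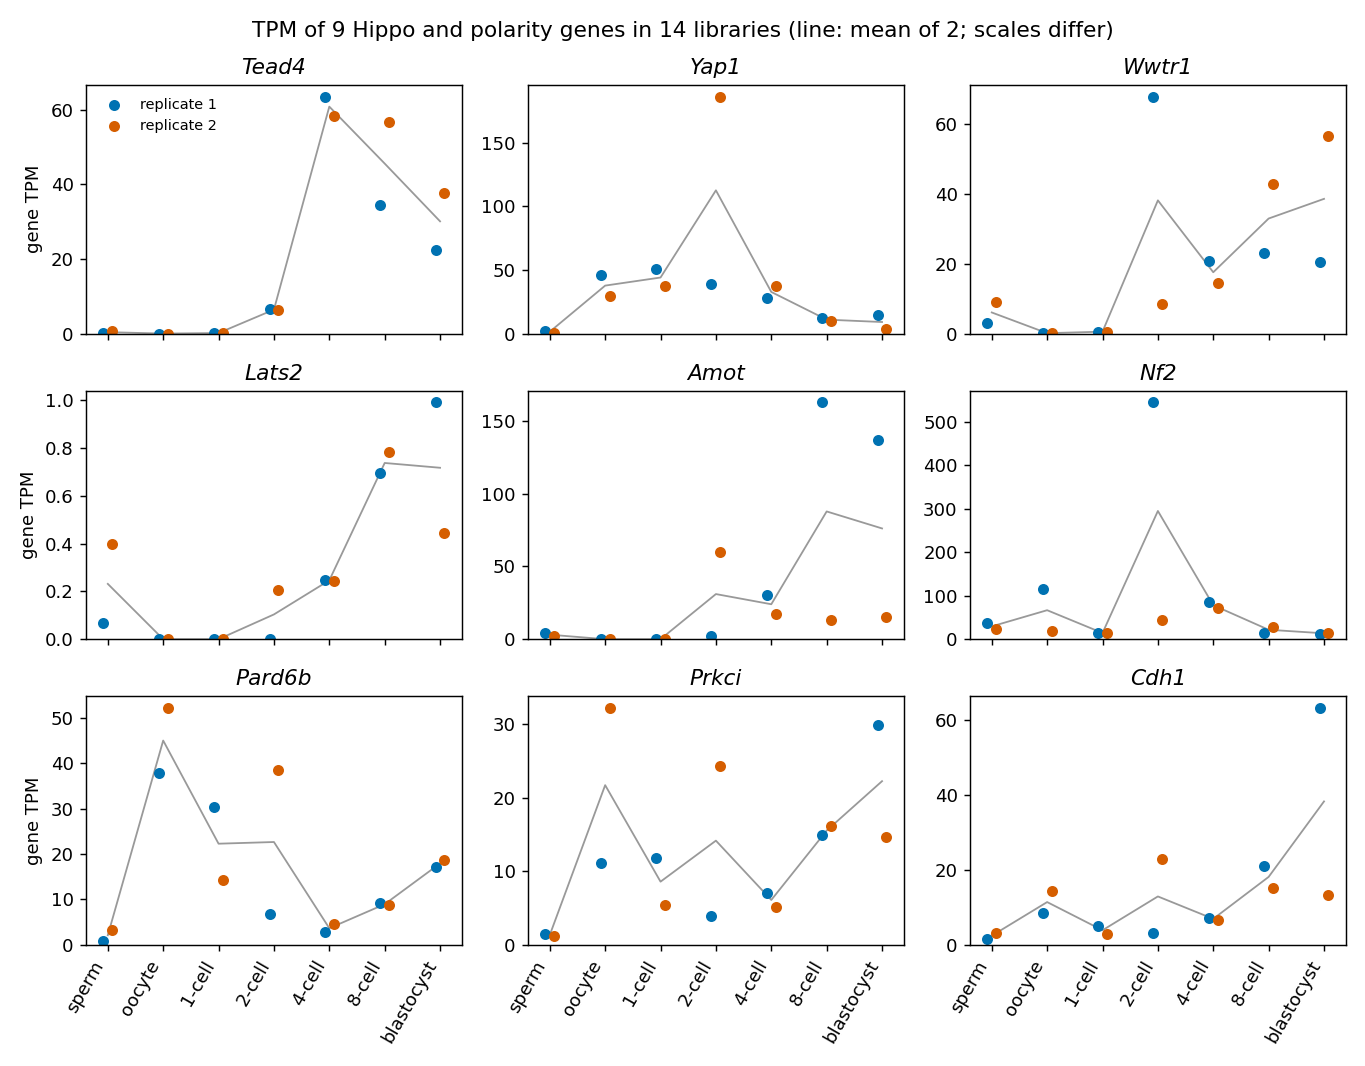
Each panel plots the TPM of 1 gene (linear axis from 0, with its own scale) in the 14 short-read libraries by stage, with points for replicates 1 and 2 and a line through the stage means. Tead4, Wwtr1 and Amot leave the floor at 2-cell, whereas Yap1 lies lower at 8-cell and blastocyst than in every earlier stage from oocyte on.

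LATS2, a kinase that inactivates YAP and TAZ, was represented by a gene that stayed under 1 TPM. Lats2 was listed at 0 in both oocyte and both 1-cell libraries, at 0 and 0.207 TPM at 2-cell, 0.247 and 0.245 TPM at 4-cell, 0.693 and 0.781 TPM at 8-cell and 0.990 and 0.443 TPM in blastocysts. Sperm held 0.0662 and 0.396 TPM. It did not reach the minimum of 1 TPM in 2 of the 12 libraries from oocyte to blastocyst and was not tested, whereas the other 8 measured genes passed.

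Amot, whose product links junctions to LATS, was listed at 0 in all 4 oocyte and 1-cell libraries. It stood at 2.22 and 59.9 TPM at 2-cell, 30.6 and 17.5 TPM at 4-cell, 163 and 12.9 TPM at 8-cell and 137 and 15.1 TPM in blastocysts, and at 3.93 and 2.28 TPM in sperm. Every library from 2-cell on lay above 0, but the replicates differed by 26.9-fold at 2-cell, 12.7-fold at 8-cell and 9.1-fold in blastocysts, on a transcript of 200 bases. limma called Amot higher at 2-cell than at 1-cell (adjusted p = 0.0425) and in blastocysts than in oocytes (adjusted p = 0.00314). The limma adjusted p of the first was 0.21 with a separate spread for each stage 0.32 without 2-cell replicate 2, 0.151 without 1-cell replicate 1 and 0.161 without 1-cell replicate 2, and that of the second was 0.0657 without blastocyst replicate 1. No fold is given against stages listed at 0.

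Nf2, which encodes the scaffold Merlin, had its highest mean at 2-cell and its lowest in blastocysts. Its level was 114.5 and 18.7 TPM in oocytes, 13.6 and 14.9 TPM at 1-cell, 545 and 44.6 TPM at 2-cell and 84.5 and 71.6 TPM at 4-cell. It was 15.3 and 28.1 TPM at 8-cell, 12.0 and 15.0 TPM in blastocysts, and 36.6 and 22.4 TPM in sperm. The 2-cell libraries stood on both sides of those of 4-cell and above those of 1-cell. The rise from 1-cell to 2-cell was 3.37 ± 1.04 on the log2(TPM + 1) scale (SE, limma adjusted p = 0.0234). It rests on 2-cell replicate 1, without which it was 1.58 (limma adjusted p = 0.201), and the adjusted p was 0.0757 with a separate spread for each stage, 0.102 without 1-cell replicate 1 and 0.1 without 1-cell replicate 2.

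Pard6b and Prkci, the apical pair, had a maternal level and a low point at 4-cell in their means. Pard6b, the adaptor, stood at 37.8 and 52.3 TPM in oocytes, 30.4 and 14.2 TPM at 1-cell, 6.78 and 38.6 TPM at 2-cell, 2.82 and 4.50 TPM at 4-cell, 9.12 and 8.79 TPM at 8-cell and 17.2 and 18.8 TPM in blastocysts, and at 0.952 and 3.27 TPM in sperm. Prkci, the kinase, stood at 11.2 and 32.3 TPM in oocytes, 11.8 and 5.39 TPM at 1-cell, 3.96 and 24.4 TPM at 2-cell, 7.03 and 5.17 TPM at 4-cell, 15.0 and 16.1 TPM at 8-cell and 29.9 and 14.6 TPM in blastocysts, and at 1.52 and 1.16 TPM in sperm. The Pard6b libraries of 4-cell lay below those of 2-cell, those of 8-cell above those of 4-cell, and those of blastocyst above those of 8-cell, while Prkci was separated only between 4-cell and 8-cell among consecutive stages. Neither gene was called in any transition by limma with the spread shared by all stages, whereas both were called from 4-cell to 8-cell with a separate spread for each stage, as given below. The fall of Pard6b from 2-cell to 4-cell by 1.94 on the log2(TPM + 1) scale had a limma adjusted p of 0.152. The change was −3.11 without 2-cell replicate 1 and −0.76 without 2-cell replicate 2.

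Cdh1, the E-cadherin gene, was measured in every library. It stood at 8.48 and 14.4 TPM in oocytes, 4.99 and 2.81 TPM at 1-cell, 3.04 and 22.8 TPM at 2-cell, 7.23 and 6.65 TPM at 4-cell, 21.1 and 15.2 TPM at 8-cell and 63.4 and 13.3 TPM in blastocysts, and at 1.61 and 3.25 TPM in sperm. The 8-cell libraries lay above those of 4-cell, and blastocyst overlapped 8-cell. No transition of Cdh1 was called by limma with the shared spread. With a separate spread for each stage it was called from 4-cell to 8-cell. Its change from 1-cell to 2-cell on the log2(TPM + 1) scale was 2.32 without 2-cell replicate 1. Without 2-cell replicate 2 that change was −0.24.

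With the shared spread, 1-cell to 2-cell was the step between consecutive stages with the most calls over all genes (32.3%), whereas with a separate spread for each stage 4-cell to 8-cell had more (39.2%, against 15.3%). At 1-cell to 2-cell limma called 4 of the 8 tested members higher and 0 lower (Tead4, Wwtr1, Amot and Nf2), where 26.1% of the 10000 genes were called higher and 6.2% lower. The median of all genes was itself higher by 0.72 on the log2(TPM + 1) scale, and lower by 0.12 after quantile normalization. Relative to the median of all genes, the rises were 1.98 for Tead4, 3.33 for Wwtr1, 3.09 for Amot and 2.65 for Nf2 on that scale. After quantile normalization all 4 kept their direction with limma adjusted p from 0.0761 to 0.0985, and 0 of the 8 were called (33.5% of all genes). With a separate spread for each stage Wwtr1 was the 1 member called (15.3% of all genes). Without 2-cell replicate 1, whose 2-cell markers were low, the rises were 2.67 for Tead4 and 2.62 for Wwtr1 on the log2(TPM + 1) scale. Those of Amot and Nf2 were 5.93 and 1.58. Without 2-cell replicate 2 the rises of Tead4, Wwtr1, Amot and Nf2 were 2.73, 5.47, 1.69 and 5.16. A fit with 1 library at 2-cell has no spread there, so only the changes are given here. The limma adjusted p values printed elsewhere for fits with a library left out rest on the spread of the other stages. They are printed where a call was lost, while other such fits gained a call. Among the latter were Cdh1 from 1-cell to 2-cell and Pard6b from 2-cell to 4-cell, both without 2-cell replicate 1. Over all 12 libraries the median change of the 8 members was 1.87.

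From 2-cell to 4-cell Tead4 was the 1 member of 8 called, against 3.4% of all genes. With a separate spread for each stage 0.01% of all genes and 0 members were called at this step. From oocyte to 1-cell 0 of 8 members were called by limma (0.38% of all genes) and 0 had an unadjusted p under 0.05, with 0 called after quantile normalization (0.09% of all genes) or with a separate spread for each stage (0.86%). Between 8-cell and blastocyst 0 of 8 were called by limma (3% of all genes) and 0 had an unadjusted p under 0.05, with 0 called after quantile normalization (4.29%) or with a separate spread for each stage (5.55%).

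The step from 4-cell to 8-cell depended on how the spread was estimated. With the spread shared by all stages limma called 0 of 8 members (1.67% of all genes), and 0 had an unadjusted p under 0.05. The 4 libraries of these stages lay close together, and with a separate spread for each stage limma called 3 members higher (11% of all genes) and 2 lower (28.2%). The 3 were Cdh1, by 1.25 (adjusted p = 0.0117), Prkci, by 1.23 (adjusted p = 0.0126), and Pard6b, by 1.12 (adjusted p = 0.0181), each with an SE between 0.356 and 0.371 on the log2(TPM + 1) scale. The 2 were Nf2, which fell by 1.86 (SE 0.424, limma adjusted p = 0.00199), and Yap1, which fell by 1.48 (SE 0.367, limma adjusted p = 0.00352). In the shared fit the limma adjusted p of these 5 lay between 0.428 and 0.559. The libraries of the stages did not overlap for 7 of 8 members, against 70.3% of all genes.

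**Figure D3:**
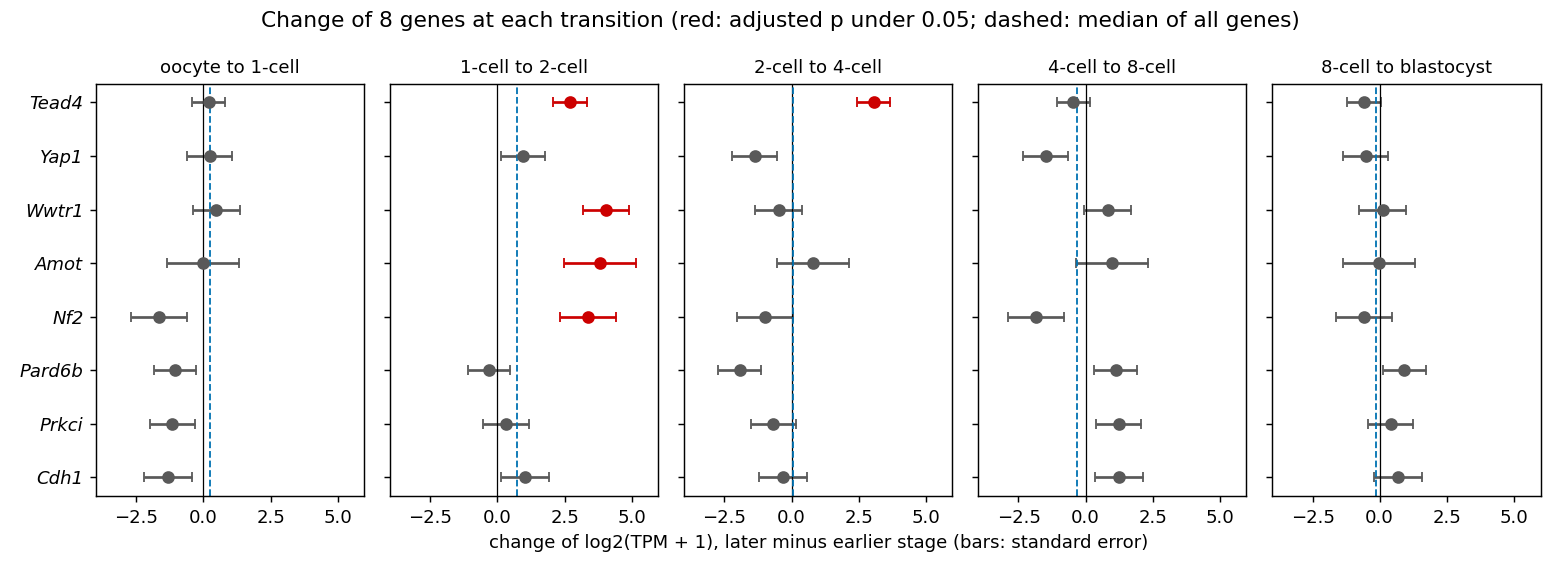
Each panel is 1 step between consecutive stages, and its points give the change of log2(TPM + 1) of the 8 tested genes with bars for the SE from limma (red for an adjusted p under 0.05) and a dashed line for the median of all 10000 genes. From 1-cell to 2-cell Wwtr1 stands at 4.05 and the median of all genes at 0.72.

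Over the whole course from oocyte to blastocyst limma called 3 of 8 members higher (35.4% of all genes) and 1 lower (18%). Tead4 (adjusted p = 3.15e-05), Wwtr1 and Amot were higher, and Yap1 was lower. The median change of the 8 members was 0.73, beside 0.82 for all genes. Pard6b was lower by 1.26 ± 0.79 (SE, limma adjusted p = 0.191), and was called lower after quantile normalization (limma adjusted p = 0.0293), which moved the median of all genes to 0.07.

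The Tead4 isoforms took unequal shares of the gene through development. The isoform with the annotated start stood at 4.29 and 2.17 TPM at 2-cell, 24.2 and 20.5 TPM at 4-cell, 17.6 and 33.1 TPM at 8-cell and 19.6 and 32.1 TPM in blastocysts. The isoform with the upstream start, which lacks exon 5, stood at 2.26 and 4.12 TPM at 2-cell, 39.2 and 37.6 TPM at 4-cell, 16.8 and 23.6 TPM at 8-cell and 2.79 and 5.62 TPM in blastocysts. The upstream isoform made up 61.8% and 64.7% of Tead4 TPM at 4-cell, 48.8% and 41.6% at 8-cell, and 12.4% and 14.9% in blastocysts. The shares of these 3 stages did not overlap, while those of 2-cell (34.5% and 65.5%) spanned most of the range. At 1-cell each library held only 1 of the isoforms, at under 0.2 TPM.

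Between consecutive stages limma called no change of Tead4 isoform use, the log2 ratio of (TPM + 1) of one isoform to that of the other. The ratio of upstream to annotated start fell by 1.03 from 4-cell to 8-cell (SE 0.532, limma adjusted p = 0.475, 0.307% of 10407 transcripts called) and by 2.12 from 8-cell to blastocyst (SE 0.532, limma adjusted p = 0.159, 0.211% called). The level of the upstream isoform alone fell by 2.06 on the log2(TPM + 1) scale from 8-cell to blastocyst (SE 0.611, limma adjusted p = 0.118). That p was 0.0424 in the fit without both 2-cell libraries, an alternative added after the data were seen. From oocyte to blastocyst limma called the ratio (adjusted p = 0.00874, 29.4% of transcripts called), but both isoforms were listed at 0 in oocytes, so the oocyte ratio is set by the pseudocount alone, and the call was lost with a pseudocount of 0.1. From 2-cell to 4-cell the upstream isoform rose by 3.27 ± 0.61 (SE, limma adjusted p = 0.0256, 2.63% of 20250 transcripts called), and that with the annotated start was higher by 2.51 ± 0.64 (limma adjusted p = 0.0557). The upstream isoform was not called without 4-cell replicate 1 (a rise of 3.24) or without 4-cell replicate 2 (3.30). Without 2-cell replicate 1 the rise of the isoform with the annotated start was 2.88.

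**Figure D4:**
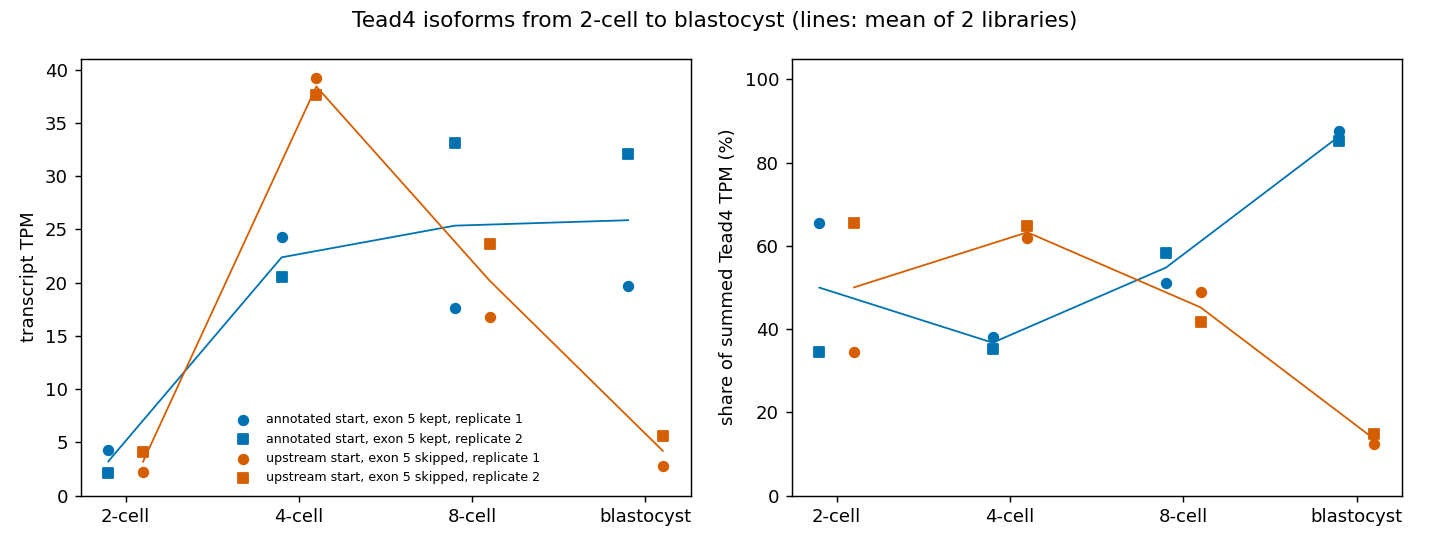
Points give the TPM of each Tead4 isoform (left) and its percent share of the summed Tead4 TPM (right) in each library from 2-cell to blastocyst, and lines join the means of 2 libraries. The share of the upstream-start isoform lies at 61.8% and 64.7% at 4-cell and at 12.4% and 14.9% in blastocysts.

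Nf2 had 3 merged transcripts, a 3′ end of 1 exon, a chain of 15 exons, and a short transcript of 2 exons at the gene start with an annotated intron. The first exon of the short transcript (547 of its 908 bases) lay within that of the chain of 15 exons. The division of TPM between these transcripts is therefore an estimate over shared sequence. The 3′ end shared no base with either of them. The short transcript, seen in the 2-cell pool, covered 18.6% of the coding bases. It stood at 0.260 and 0.803 TPM in oocytes, 0.525 and 0.624 TPM at 1-cell, 245 and 10.2 TPM at 2-cell, 9.02 and 10.2 TPM at 4-cell, 1.25 and 2.51 TPM at 8-cell and 0.750 and 1.34 TPM in blastocysts. Both 2-cell libraries and both 4-cell libraries lay above all those of the other stages from oocyte on. It rose from 1-cell to 2-cell by 5.06 ± 1.07 on the log2(TPM + 1) scale (SE, limma adjusted p = 0.00491, 28% of transcripts called, and 0.0127 with a separate spread for each stage). The limma adjusted p was 0.0585 after quantile normalization, and without 2-cell replicate 1 the rise was 2.83.

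The chain of 15 exons stood at 223 and 7.53 TPM at 2-cell and 39.8 and 22.5 TPM at 4-cell, and between 2.46 and 11.7 TPM in the 8 libraries of the other embryo and oocyte stages. The 3′ end stood at 112 and 13.8 TPM in oocytes, 10.1 and 8.22 TPM at 1-cell, 76.5 and 26.9 TPM at 2-cell, 35.7 and 39.0 TPM at 4-cell, 9.24 and 13.8 TPM at 8-cell and 7.14 and 5.42 TPM in blastocysts. In oocytes the 3′ end took 97.6% and 73.6% of Nf2 TPM, so the oocyte level of the gene was mostly that of a piece without coding bases. The 3′ end fell by 2.50 from oocyte to blastocyst on the log2(TPM + 1) scale (SE 0.908, limma adjusted p = 0.0418, 43% of transcripts called). The level fell by 1.03 without oocyte replicate 1 (limma adjusted p = 0.361), and the adjusted p was 0.111 without blastocyst replicate 1 and 0.139 without blastocyst replicate 2. Isoform use of Nf2 was not called by limma in any comparison over all 12 libraries. From oocyte to blastocyst the log2 ratio of the 3′ end to the other Nf2 transcripts changed by −3.24. Without oocyte replicate 2 that change was −5.05.

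**Figure D5:**
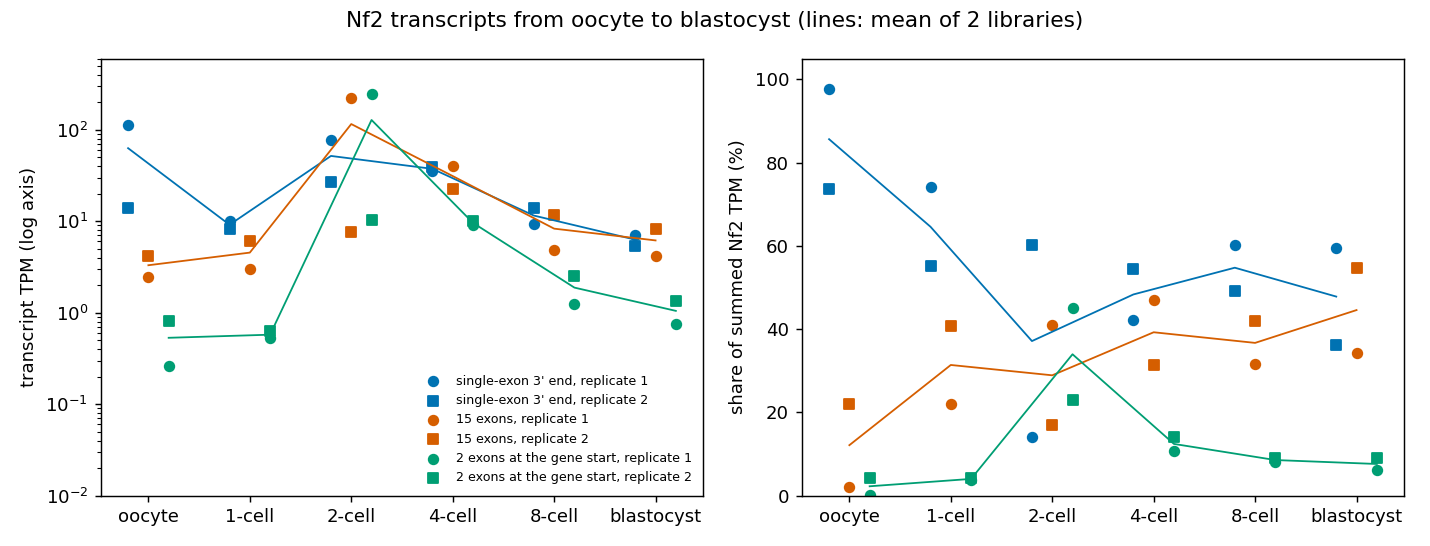
Points give the TPM of the 3 merged Nf2 transcripts (left, log axis) and their percent shares of the summed Nf2 TPM (right) in each library from oocyte to blastocyst, and lines join the means of 2 libraries. The transcript of 2 exons is at 245 and 10.2 TPM at 2-cell and under 1 TPM in the oocyte and 1-cell libraries.

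The other genes of the pathway were read from lists of names. Of 13 genes of the kinase cassette and its adaptors 8 were tested. Stk4, an upstream kinase, was the 1 called by limma between consecutive stages, at 1-cell to 2-cell (26.1% of all genes higher). Stk4 went from 2.10 and 0.691 TPM at 1-cell to 6.80 and 19.6 TPM at 2-cell (limma adjusted p = 0.019, and 0.0996 with a separate spread for each stage or 0.0933 after quantile normalization). Its limma adjusted p was 0.142 without 1-cell replicate 2 and 0.0758 without 2-cell replicate 2. With quantile normalization the list had 0 higher and 2 lower at this step, beside 1591 and 1757 of all 10000 genes. With a separate spread for each stage 1 was higher and 3 were lower from 4-cell to 8-cell, beside 11% and 28.2% of all genes. From oocyte to blastocyst 2 rose (Mob1a and Stk4) and 3 fell (Mob1b, Taok3 and Wwc2), beside 35.4% and 18% of all genes, and the median change of the list was −1.54 beside 0.82 for all genes. With quantile normalization 0 rose and 4 fell, beside 2659 and 2637 of all 10000 genes.

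Of 9 partners of YAP and TEAD 4 were tested, and Tead1, Tead2 and Tead3 had no merged transcript, so Tead4 was the measured member of its family. Ajuba, a LIM protein that restrains LATS, went from 0.0486 and 0.0283 TPM at 1-cell to 14.9 and 30.7 TPM at 2-cell (limma adjusted p = 0.000226). Vgll4, which competes with YAP for TEAD proteins, went from 3.43 and 1.48 TPM at 4-cell to 26.9 and 43.6 TPM at 8-cell (limma adjusted p = 0.0408, 1.67% of all genes called). That call was lost without any 1 of the 4 libraries (limma adjusted p from 0.178 to 0.472) and with no filter on low values (0.06). The libraries of these stages did not overlap for either gene. Vgll4 was already present before 4-cell, at 18.5 and 20.5 TPM in oocytes and 25.6 and 13.2 TPM at 1-cell. At 2-cell it stood at 6.17 and 14.6 TPM.

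Among 7 tested genes known as targets of YAP and TEAD4, limma called 2 higher at 8-cell than at 4-cell (Gata3 and Krt8), 3 higher in blastocysts than at 8-cell (Cdx2, Krt8 and Krt18), and 0 lower at either step, where 1.67% and 3% of all genes were called. The first count was 0 without any 1 of the 4 libraries or with no filter on low values, and 5 with a separate spread for each stage. The second was 0 without 8-cell replicate 1 or in the fit on the 4 libraries of these stages. Gata3, a trophectoderm transcription factor, went from 3.53 and 2.82 TPM at 4-cell to 73.2 and 223 TPM at 8-cell (limma adjusted p = 0.029). Gata3 was already present before 4-cell, at 29.9 and 199 TPM in oocytes, 40.9 and 11.6 TPM at 1-cell and 1.51 and 11.8 TPM at 2-cell. Cdx2, its partner in that lineage, went from 1.96 and 4.89 TPM at 8-cell to 46.7 and 120 TPM in blastocysts (limma adjusted p = 0.00191). The median change of the targets was 2.37 at the first of these steps and 3.25 at the second, where that of all genes was −0.34 and −0.14. Cdx2, Gata3, Krt8 and Krt18 were also 4 of the 5 blastocyst markers used for the labels. Over the same steps Tead4 was at −0.45 and −0.59, with neither called.

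Of 18 tested genes of the polarity complexes 2 rose (Prkcz and Mark3) and 1 fell (Rdx) from 1-cell to 2-cell, beside 26.1% and 6.2% of all genes. With quantile normalization 1 rose and 4 fell, beside 1591 and 1757 of all 10000 genes. With a separate spread for each stage 1 rose and 0 fell, beside 1370 and 161 of all 10000 genes. From 4-cell to 8-cell 0 were called (1.67% of all genes). With a separate spread for each stage 2 were higher and 5 lower, beside 11% and 28.2% of all genes. The median change of the list at this step was −0.27 beside −0.34 for all genes. Prkcz, the second atypical protein kinase C gene, went from 0.438 and 0.319 TPM to 449 and 46.5 TPM (limma adjusted p = 0.000282), beside Prkci, which was not called. Rdx, which encodes the membrane linker radixin, went from 305 and 595 TPM to 36.1 and 136 TPM (limma adjusted p = 0.0195, 0.119 with a separate spread for each stage, and 0.129 without 1-cell replicate 2 or without 2-cell replicate 1). Msn, which encodes its relative moesin, went from 2.62 and 1.74 TPM at 8-cell to 60.8 and 16.2 TPM in blastocysts (limma adjusted p = 0.0303, 3% of all genes called). That call was lost without 8-cell replicate 1, 8-cell replicate 2 or blastocyst replicate 1 (limma adjusted p from 0.156 to 0.211), with a pseudocount of 0.1 (0.0997), with no filter on low values (0.0591) and in the fit on the 4 libraries of these stages (0.188). From oocyte to blastocyst 5 of the 18 polarity genes rose and 6 fell, beside 35.4% and 18% of all genes. Of 5 tested genes of the adhesion complex 0 were called between consecutive stages, where 0.38% to 32.3% of all genes were called. From oocyte to blastocyst 0 rose and 1 fell (Cdh2), beside 35.4% and 18% of all genes. With quantile normalization 0 rose and 2 fell from 1-cell to 2-cell, beside 1591 and 1757 of all 10000 genes. With a separate spread for each stage 1 rose and 0 fell from 4-cell to 8-cell, beside 11% and 28.2% of all genes.

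The gene most like each member was the one out of 9999 with the highest Pearson r of log2(TPM + 1) across the 12 tested libraries. It was Gm8325 for Tead4 (r = 0.99), Dtymk for Wwtr1 (r = 0.99), Abl2 for Yap1 (r = 0.98) and AI662270 for Amot (r = 0.97). Epb41l2 was most like Pard6b (r = 0.94), Dnmt3b most like Cdh1 (r = 0.94), Nupr1l most like Nf2 (r = 0.91) and Wwc1, an adaptor of the kinase cassette, most like Prkci (r = 0.91). The highest of many values of r over stages that share libraries is a description only.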

How the data were processed

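Short reads of each library had been quantified by the authors with salmon against the merged long-read transcripts, and the deposited values are TPM per transcript, which sum to the same total in each library. The long reads of each stage had been assembled, placed on mm10 and merged by the authors. Merged transcripts were assigned to genes of GENCODE vM21 by overlap of at least 1 exon base on the same strand, and the TPM of a gene was summed. Smart-seq2 does not keep strand, so reads of overlapping antisense genes cannot be told apart.

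Genes with at least 1 TPM in at least 2 of the 12 libraries from oocyte to blastocyst were tested with limma 3.58.1 in R 4.3.3 on log2(TPM + 1), with stage as the only term, a trend in the variance, two-sided tests and Benjamini-Hochberg adjustment over all features. Fold changes on this scale understate those of low genes. Sperm was described and not tested. Replicates are batches of pooled material, with 2 per stage, and an exact permutation test of 2 against 2 cannot go below p = 0.333. The scripts were tested on simulated data. Limits on recovered and false calls were set there only for large changes with an equal spread in all stages. Alternatives were a pseudocount of 0.1, other filters, quantile normalization, weights by stage, fits on 4 libraries, a replicate block, and each library left out. TPM levels were also read over the long-read transcripts of each stage alone. A stage with a library left out keeps 1 library and adds nothing to the estimate of the spread.

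The 10 genes and all lists were chosen with earlier results of these data known. Text names the 10 genes, the most similar gene of each by Pearson r, and genes of the lists by calls between stages. Over 15 pairs of stages the correlation of the deviations of the replicates ranged from −0.547 to 0.479, and 5 were above 0.1. With 2 libraries per stage these values cannot decide whether the replicate numbers mark batches shared by the stages. For 8-cell the replicate numbers follow the sample titles.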

Additional observations from a re-analysis of the deposited data

How the results depend on the processing

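No called change reversed under any alternative, whereas some changes that were not called took either sign, such as Cdh1 from 1-cell to 2-cell (−0.24 to 2.32 on the log2 scale). Of 1866 log2 changes under the alternatives, 1725 kept their side of the threshold, 43 gained a call and 98 lost one. Members called from 1-cell to 2-cell numbered 4, and 0 with quantile normalization, 2 in the fit on the 4 libraries of the stages, 1 with the spread weighted by stage, and 2 to 4 with a library left out. From 2-cell to 4-cell 1 was called, and 0 with a pseudocount of 0.1, with the 4 libraries, with the weighted spread or with the replicate block, and 0 to 2 with a library left out. From 4-cell to 8-cell 0 were called, and 5 with the 4 libraries or with the weighted spread.

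For the transcripts of the members, 4 were called from 1-cell to 2-cell, and 0 with quantile normalization or the 4 libraries, 2 with the replicate block or the weighted spread, and 2 to 4 with a library left out. From 2-cell to 4-cell 1 was called, and 0 with a pseudocount of 0.1, the 4 libraries or the weighted spread, 2 with quantile normalization or a minimum of 5 TPM, and 0 to 3 with a library left out. From 4-cell to 8-cell 0 were called, and 3 with the 4 libraries, 8 with the weighted spread and 1 in a fit on 10 libraries without 2-cell, an alternative chosen after seeing the data. That fit also called 1 transcript from 8-cell to blastocyst, where 0 had been called. Isoform shares called from oocyte to blastocyst numbered 2, and 0 with a pseudocount of 0.1, 4 in the fit on 10 libraries, and 2 to 5 with a library left out. The 2 shares called over all 12 libraries were those of the Tead4 isoforms, which are 1 ratio and its inverse. Both isoforms were listed at 0 in oocytes, so the pseudocount sets that oocyte ratio. The cause of the differences between the alternatives was not tested. Whether the replicate numbers pair the samples could not be decided, and the replicate block moved no other count of members by more than 1.5 times. Under the replicate block the fall of Yap1 from oocyte to blastocyst (limma adjusted p = 0.0535) and, among the pathway lists, the rises of Vgll4 (0.0707) and Msn (0.052) were not called. TPM carries no depth, so no counting error can be given for the low values of Tead4, Wwtr1, Amot and Lats2.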
